A study of Mus musculus with 6 samples.

Results

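The data describe 10 genes of the YAP and TEAD pathway in mouse embryonic fibroblasts (MEFs) after knockdown of *Yme1l*, the gene of the mitochondrial protease YME1L. The genes were chosen by name: *Yap1*, *Wwtr1*, *Tead1*, *Lats2*, *Amotl1*, *Amotl2*, *Ctgf*, *Cyr61*, *Ankrd1* and *Axl*. Each name was found at 1 of the 51499 loci of the count table, and all 10 genes were among the 14499 loci that passed the filter on low counts. Polyadenylated RNA was sequenced from WT MEFs collected 72 h after transfection with a scrambled control siRNA (Scr) or with Yme1l siRNA, with 3 independent cultures per group and no other treatment. The sample labels call the cells 3T3 immortalized, whereas the methods describe SV40 large T antigen and a clonally expanded WT line that carries loxP sites at both *Yme1l* alleles. Both groups share this background, and whether the Yme1l treatment held a single siRNA is not stated in the sources used here. The libraries held between 37260605 and 45205207 counts.

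YAP and its paralogue TAZ, encoded by *Yap1* and *Wwtr1*, are co-activators without a DNA-binding domain of their own. When the Hippo kinases MST and LATS are active, YAP and TAZ are phosphorylated and held in the cytoplasm or degraded. Otherwise they enter the nucleus and bind TEAD factors at promoters and enhancers. In fibroblasts the pathway is known to respond to cell density, matrix stiffness, the actin cytoskeleton and serum. *Ctgf*, *Cyr61* and *Ankrd1* are its classical target genes. *Lats2* and *Amotl2* are targets as well and encode inhibitors of YAP, a negative feedback. *Axl* is also counted among the targets. RNA levels do not measure the phosphorylation, the location or the activity of YAP and TAZ proteins.

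The knockdown was seen in every library. *Yme1l1* was at 170.5, 171.3 and 170.6 CPM (counts relative to the library size after TMM scaling) in Scr replicates 1, 2 and 3, and at 31.6, 23.4 and 45.0 CPM in Yme1l siRNA replicates 1, 2 and 3. Its level thus remained highest in Yme1l siRNA replicate 3. This is a log2 fold change of -2.36 with a standard error (SE) of 0.20. The adjusted p was 3.87e-05 in the quasi-likelihood test of edgeR, adjusted by Benjamini-Hochberg over the 14499 loci tested, as for all adjusted p-values given here.

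The fibroblast label was checked with marker genes. Of 10 fibroblast markers 8 were tested, of which 7 were lower after knockdown, including *Col1a1* (log2 fold change -0.58), *Col1a2* (-1.40), *Col3a1* (-1.51) and *Fn1* (-0.98). Of all loci tested, 29.6% were called lower and 28.4% higher. The summed level of the fibroblast markers was 33454 to 40622 CPM in Scr and 17965 to 22404 CPM in Yme1l siRNA libraries. *Thy1* and *Lum* were at or near 0 in all of these libraries. None of 5 epithelial markers reached the filter (at most 0.529 CPM summed). Endothelial markers summed to 3.79 to 4.08 CPM in Scr and 5.68 to 7.81 CPM in Yme1l siRNA libraries, with 2 of the 3 tested called higher. Of these, *Kdr* had 3, 9 and 7 counts in Scr libraries and 43, 43 and 38 in Yme1l siRNA libraries. *Kdr* passed the filter only through the knockdown libraries. Leukocyte markers summed to 42.6 to 53.0 and 25.7 to 58.2 CPM, nearly all of it *Cd68*, with *Cd3e* at 0. Muscle markers summed to 0.993 to 2.70 and 4.15 to 6.44 CPM, with *Myod1* and *Myog* at 0 and *Tnnt2*, a cardiac marker, called higher. The part of these markers in the changes of the YAP and TEAD genes was not tested.

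Of the 10 genes, 5 were higher and 3 were lower after *Yme1l* knockdown at an adjusted p under 0.05, where 28.4% of all loci tested were called higher and 29.6% lower (58.0% in either direction). The 5 higher genes were the targets *Ankrd1*, *Ctgf* and *Cyr61* and the inhibitors *Lats2*, whose counts are joined with those of its neighbour *Xpo4*, and *Amotl2*. The 3 lower genes were the co-activators *Yap1* and *Wwtr1* and the motin *Amotl1*. *Tead1* and the target *Axl* did not pass the threshold. The median log2 fold change of the 10 genes was 0.35, against 0.01 over all loci tested. At 9 of the 10 genes no Scr library overlapped with a knockdown library, compared with 65.4% of all loci tested. Rises of at least 2-fold with a call were found at 8.18% of all loci and at *Ankrd1*, *Ctgf* and *Cyr61*, and falls of at least 2-fold at 7.28% and at *Yap1*. In bulk RNA, fewer cells with a transcript and less of it per cell cannot be told apart.

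**Figure D1:**
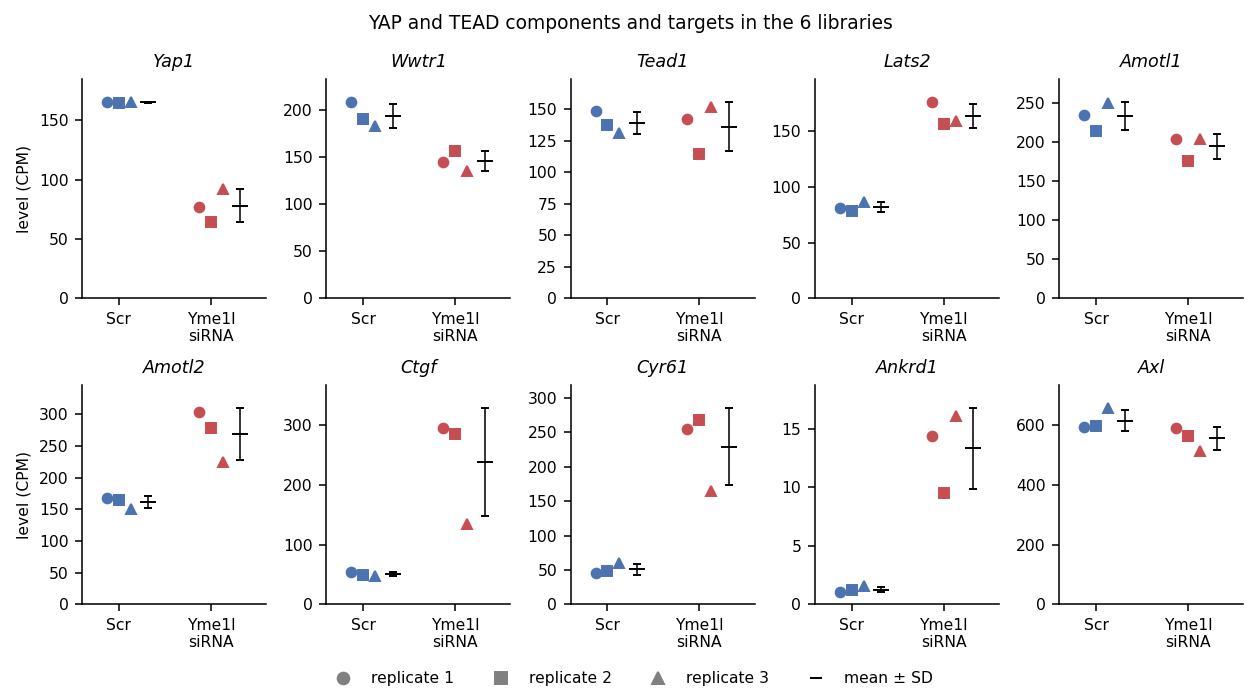
Level of each of the 10 genes (CPM, linear axes from 0) in the 3 Scr libraries (blue) and the 3 Yme1l siRNA libraries (red), with the shape of the symbol marking the replicate and the mean ± SD beside it. *Ctgf*, *Cyr61* and *Ankrd1* lay several-fold higher in every Yme1l siRNA library, *Yap1* lay lower, and the groups overlapped only at *Tead1*.

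The co-activators were lower, *Yap1* more than *Wwtr1*. *Yap1* (XLOC_045968; chromosome 9 of GRCm38, 7931999 to 8004596, minus strand) was at 164.8, 164.7 and 164.8 CPM in Scr replicates 1, 2 and 3, a range of 1.00-fold. In Yme1l siRNA replicates 1, 2 and 3 it was at 77.2, 64.3 and 92.3 CPM. Every knockdown culture therefore lay well below the Scr cultures, and the knockdown cultures differed among themselves by 1.44-fold. The log2 fold change was -1.08 (SE 0.12, edgeR adjusted p = 0.000129), so that 47.3% of the Scr level remained. Only 6.5% of the loci tested had a larger fall. *Wwtr1* (XLOC_027685; chromosome 3, 57455649 to 57575910, minus strand) was at 208, 190 and 183 CPM in Scr cultures and at 145, 157 and 136 CPM after knockdown. Its groups did not overlap, and its log2 fold change was -0.41 (SE 0.08, edgeR adjusted p = 0.00286), a level of 75.3%.

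Since the ratio of both genes within a library does not depend on the scaling of libraries, it was compared as well. There were 0.793, 0.865 and 0.901 *Yap1* counts for each *Wwtr1* count in Scr replicates 1, 2 and 3, and 0.532, 0.410 and 0.681 in the Yme1l siRNA replicates. The ratio was thus lower in every knockdown culture, by 0.69 on the log2 scale (exact two-sided permutation test, p = 0.1, the smallest that 3 cultures against 3 allow). Per length, both genes stood at the same level in the authors' FPKM for the Scr group, 41.6 for *Yap1* and 41.5 for *Wwtr1*. After knockdown these group values were 20.6 and 31.2, and their sum was 51.8 against 83.1 in the Scr group.

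*Tead1* encodes a DNA-binding partner of YAP and TAZ (XLOC_039390; chromosome 7, 112679318 to 112906807, plus strand). Its level was 149, 138 and 131 CPM in Scr replicates 1, 2 and 3 and 142, 115 and 152 CPM in the Yme1l siRNA replicates. The groups overlapped, since the lowest and the highest values were both from knockdown cultures. The log2 fold change of *Tead1* was -0.03 (95% interval -0.28 to 0.21, edgeR adjusted p = 0.813). Its sign turned when Scr replicate 1 (0.01) or Yme1l siRNA replicate 2 (0.09) was left out.

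The paralogues of *Tead1* moved in different directions. *Tead2* had a log2 fold change of -0.59 (SE 0.07, edgeR adjusted p = 0.000191) and *Tead3* of -0.47 (SE 0.08, edgeR adjusted p = 0.00149). *Tead4* rose by 0.37 (SE 0.09, edgeR adjusted p = 0.00881). Per length, *Tead2* had the highest of the authors' group FPKM values in Scr cultures, with 64.8 against 19.2 for *Tead3*, 16.5 for *Tead1* and 5.68 for *Tead4*. The FPKM values of the 4 genes summed to 106 in the Scr group and 81.4 after knockdown. For *Tead1* the group FPKM was 18.2 after knockdown, above its Scr value, whereas its counts gave a log2 fold change of -0.03. *Cd37*, whose exons overlap those of *Tead2* on the other strand, held at most 6 counts in a library.

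*Lats2* encodes a kinase that phosphorylates YAP and TAZ. Its level was 80.6, 78.7 and 86.8 CPM in Scr replicates 1, 2 and 3, and 176, 156 and 159 CPM in the Yme1l siRNA replicates. The highest Scr value lay far below the lowest knockdown value, by 1.80-fold. With a log2 fold change of 0.99 (SE 0.08, edgeR adjusted p = 2.45e-05), the rise was 1.99-fold. The count table joins *Lats2* with its neighbour *Xpo4* in 1 locus (XLOC_015607), which the authors place on chromosome 14 from 57577521 to 57758388. *Lats2* itself spans 57689662 to 57758388 on the minus strand. The counts therefore do not say which gene carries the rise.

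*Lats1*, the paralogous kinase, had a locus of its own and was at 115, 109 and 116 CPM in Scr cultures and 128, 124 and 128 CPM after knockdown. The log2 fold change of *Lats1* was 0.16 (95% interval 0.01 to 0.30, edgeR adjusted p = 0.0663). It passed the threshold with upper-quartile scaling (0.17, adjusted p = 0.0380) and when only loci averaging 50 counts or more were kept (0.19, adjusted p = 0.0259). Within a library, the counts at the *Lats2* locus were 0.700 to 0.746 times those of *Lats1* in the Scr group and 1.24 to 1.37 times after knockdown. These ratios did not overlap and differed by 0.84 on the log2 scale (exact two-sided permutation test, p = 0.1).

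The motins are scaffold proteins that bind YAP at junctions and actin filaments and restrain it. *Amotl2* (XLOC_045622; chromosome 9, 102716672 to 102733418, plus strand) was at 167, 165 and 150 CPM in Scr replicates 1, 2 and 3 and at 304, 278 and 224 CPM in the Yme1l siRNA replicates. All knockdown cultures were above all Scr cultures, with replicate 3 the lowest of them. This was a rise of 0.74 on the log2 scale (SE 0.11, edgeR adjusted p = 0.000665), or 1.67-fold.

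*Amotl1* (XLOC_045999; chromosome 9, 14541966 to 14645056, minus strand) was at 236, 215 and 250 CPM in Scr cultures and at 204, 176 and 204 CPM after knockdown. The groups lay next to each other without overlap, the lowest Scr value being 1.05 times the highest knockdown value. *Amotl1* had a log2 fold change of -0.26 (SE 0.09, edgeR adjusted p = 0.0332). *Amotl1* lost its call in 4 of the 6 leave-one-out fits, namely without Scr replicate 1 (adjusted p = 0.0825), Scr replicate 3 (0.0956), Yme1l siRNA replicate 1 (0.0573) and Yme1l siRNA replicate 2 (0.0915).

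The balance of both motins was therefore different between the groups. For each *Amotl1* count there were 0.7108, 0.7702 and 0.5996 *Amotl2* counts in Scr replicates 1, 2 and 3, and 1.48, 1.58 and 1.10 in the Yme1l siRNA replicates. There were thus more *Amotl1* than *Amotl2* counts in every Scr library and fewer in every knockdown library. The ratio of counts differed by 0.99 on the log2 scale, or 1.99-fold (exact two-sided permutation test, p = 0.1). Per length, *Amotl2* was already the higher of both in the authors' FPKM for the Scr group, with 43.9 against 27.1 for *Amotl1*. After knockdown these group values were 77.4 and 25.1. *Amot*, the third motin gene, had a log2 fold change of 0.08 (95% interval -0.18 to 0.34, edgeR adjusted p = 0.580).

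**Figure D2:**
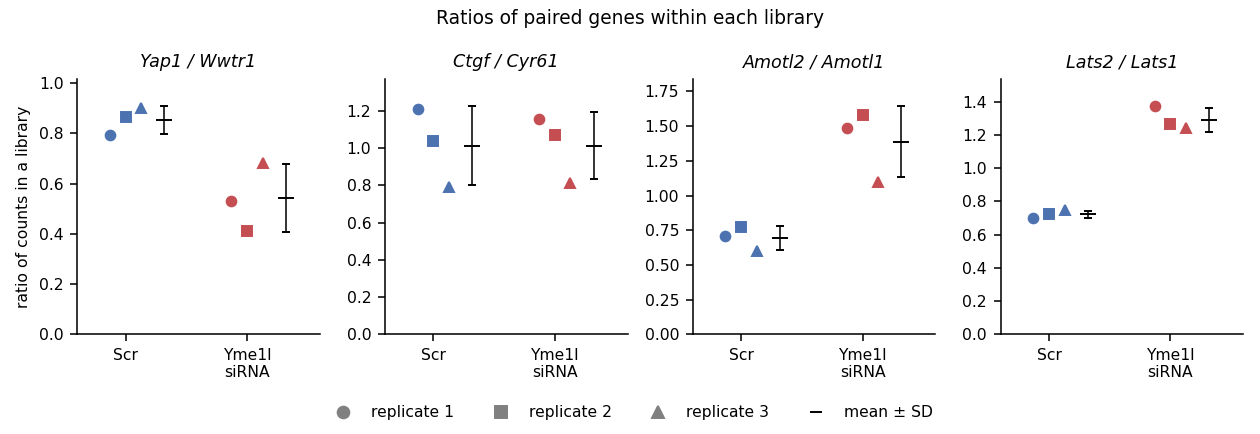
Ratio of the counts of paired genes within each library (linear axes from 0) for Scr (blue) and Yme1l siRNA (red) cultures, with the shape of the symbol marking the replicate and the mean ± SD beside it. The *Yap1* to *Wwtr1* ratio was lower and the *Amotl2* to *Amotl1* and *Lats2* to *Lats1* ratios were higher in all 3 knockdown cultures, while the *Ctgf* to *Cyr61* ratio overlapped between the groups. The counts of *Lats2* are joined with those of *Xpo4*, so that ratio does not say which gene rose.

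Among the 10 genes, the largest changes were at the classical targets. *Ctgf* and *Cyr61* encode secreted matricellular proteins of the CCN family, which bind integrins and growth factors. *Ankrd1* encodes an ankyrin repeat protein of the sarcomere and the nucleus. Sequence before the start sites is shown because promoters of such targets are known to be bound by TEAD. In RefSeq (GRCm38.p6), 8 of the 10 genes had a promoter sequence, and *Ctgf* and *Tead1* had none in the table used. The 250 bases before each start site given there were searched for GGAATG, the core of the TEAD motif, on both strands (CATTCC on the other strand). Matches were found in windows of 6 of the 8 genes, compared with 14.4% of the 27025 genes and 12.6% of the 32851 windows in the table. These letters were not in the windows of *Amotl1* and *Lats2*. A match describes the sequence, and no binding was measured. The window of *Cyr61* (chr3:145649986-145650235, minus strand, 5′ to 3′) holds its match, in capitals, from 103 bases before the start site.
Cyr61: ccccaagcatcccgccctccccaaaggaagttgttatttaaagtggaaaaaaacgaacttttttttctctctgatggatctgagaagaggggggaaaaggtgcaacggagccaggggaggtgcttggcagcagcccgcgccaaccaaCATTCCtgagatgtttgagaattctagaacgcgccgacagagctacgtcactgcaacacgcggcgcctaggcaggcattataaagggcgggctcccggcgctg

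The matches of the 5 other genes are given as stretches of 30 bases, 5′ to 3′ on the strand of the gene, with the match in capitals. RefSeq start sites can lie inside the span that GENCODE gives a gene. *Ankrd1* (minus strand) has 2 matches, 210 bases (chr19:36120037-36120066) and 123 bases (chr19:36119950-36119979) before its RefSeq start site at 36119844. Both lie within the GENCODE gene, where all 250 bases of the window are annotated as exon of a transcript that starts further upstream. *Amotl2* (chr9:102717727-102717756, plus strand) has a match 65 bases before its RefSeq start site at 102717804, which is also inside the GENCODE gene, and 136 bases of its window are annotated as exon. *Yap1* (chr9:8004720-8004749, minus strand) has a match at 141 bases. *Wwtr1* (chr3:57576029-57576058, minus strand) has a match at 170 bases from one start site and 136 from the other. *Axl* (chr7:25788949-25788978, minus strand) has a match at 233 bases. The match is present in genes that rose, in *Yap1* and *Wwtr1*, which fell, and in *Axl*, which was not called.
Ankrd1, 210 bases: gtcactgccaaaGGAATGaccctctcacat
Ankrd1, 123 bases: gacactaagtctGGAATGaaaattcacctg
Amotl2: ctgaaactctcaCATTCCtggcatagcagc
Yap1: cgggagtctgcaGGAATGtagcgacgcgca
Wwtr1: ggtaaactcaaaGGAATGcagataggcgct
Axl: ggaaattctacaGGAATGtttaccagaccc

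*Ankrd1* (XLOC_022106; chromosome 19, 36111961 to 36120099, minus strand) had the largest rise of the 10 genes from the lowest level. The libraries held 46, 43 and 65 *Ankrd1* counts in Scr replicates 1, 2 and 3, and 636, 412 and 678 in the Yme1l siRNA replicates, which is 1.06, 1.19 and 1.54 CPM against 14.3, 9.48 and 16.1 CPM. The lowest knockdown value was 6.15 times the highest Scr value. The log2 fold change was 3.39 (SE 0.24, edgeR adjusted p = 1.70e-05), or 10.5-fold, and only 0.559% of the loci tested rose more. Per length, *Ankrd1* was the lowest of the 10 genes in the authors' group FPKM, with 0.775 in the Scr group and 8.13 after knockdown.

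*Ctgf* (XLOC_003514; listed as *Ccn2* in GENCODE M21, chromosome 10, 24595442 to 24598683, plus strand) was at 54.39, 50.02 and 47.59 CPM in Scr replicates 1, 2 and 3 and at 295, 286 and 135 CPM in the Yme1l siRNA replicates. No values overlapped, and replicate 3 lay apart from the other knockdown cultures, the highest of which was 2.19 times its value. The log2 fold change of *Ctgf* was 2.24 (SE 0.26, edgeR adjusted p = 0.000176), or 4.71-fold. *Gm15270*, a transcript whose exons overlap *Ctgf* on the other strand, was counted at a locus of its own and held between 11 and 45 counts, against at least 1805 for *Ctgf*.

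*Cyr61* (XLOC_028656; listed as *Ccn1* in GENCODE M21, chromosome 3, 145646976 to 145649981, minus strand) followed closely. It was at 44.9, 48.3 and 60.3 CPM in Scr replicates 1, 2 and 3 and at 255, 268 and 165 CPM in the Yme1l siRNA replicates, again without overlap and with the lowest knockdown value in replicate 3. Its log2 fold change was 2.16 (SE 0.19, edgeR adjusted p = 4.21e-05), or 4.48-fold. Larger rises were seen at 1.88% of the loci tested for *Ctgf* and at 2.03% for *Cyr61*.

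The ratio of *Ctgf* to *Cyr61* overlapped between the groups. There were 1.21, 1.04 and 0.790 *Ctgf* counts for each *Cyr61* count in Scr replicates 1, 2 and 3, and 1.16, 1.07 and 0.815 in the Yme1l siRNA replicates. The group difference was 0.01 on the log2 scale, with an SD of 0.31 in the Scr group and 0.27 after knockdown (exact two-sided permutation test, p = 1). By contrast, the ratio of *Ankrd1* to *Cyr61* counts was 2.35-fold higher after knockdown, without overlap between the groups (exact two-sided permutation test, p = 0.1). Together, the authors' group FPKM of *Ctgf* and *Cyr61* summed to 49.3 in the Scr group and 224 after knockdown.

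The other CCN genes differed in direction. *Wisp1* (CCN4) had a log2 fold change of 0.49 (SE 0.07, edgeR adjusted p = 0.000520). *Wisp2* (CCN5), which lacks the C-terminal domain of the other family members, fell by 2.77 on the log2 scale (SE 0.29, edgeR adjusted p = 9.36e-05), from 250, 254 and 164 CPM in Scr replicates 1, 2 and 3 to 35.6, 43.1 and 19.4 CPM in the Yme1l siRNA replicates. *Nov* (CCN3) had a log2 fold change of 0.08 (95% interval -0.21 to 0.36, edgeR adjusted p = 0.630), and *Wisp3* (CCN6) had 0 counts in every library.

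*Axl* encodes a receptor tyrosine kinase of the TAM family and was the most abundant of the 10 genes, with 165 in the Scr group and 158 after knockdown in the authors' FPKM. Its locus (XLOC_040405) lies on chromosome 7 from 25757273 to 25788705 on the minus strand. The level of *Axl* was 592, 596 and 655 CPM in Scr replicates 1, 2 and 3 and 590, 561 and 513 CPM in the Yme1l siRNA replicates. The groups touched without overlap, the lowest Scr value being 1.004 times the highest knockdown value. *Axl* had a log2 fold change of -0.15 (95% interval -0.33 to 0.04, edgeR adjusted p = 0.155). Of the other TAM genes, *Pros1*, which encodes the ligand protein S, fell by 1.32 on the log2 scale (SE 0.13, edgeR adjusted p = 6.13e-05). The receptors *Tyro3* (log2 fold change -0.07, adjusted p = 0.361) and *Mertk* (0.24, adjusted p = 0.272) and the ligand *Gas6* (-0.69, adjusted p = 0.124) were not called by edgeR. *Gas6* was called when the replicate number was a block (-0.68, edgeR adjusted p = 0.0328), and its value ran from -0.93 to -0.37 when single libraries were left out.

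**Figure D3:**
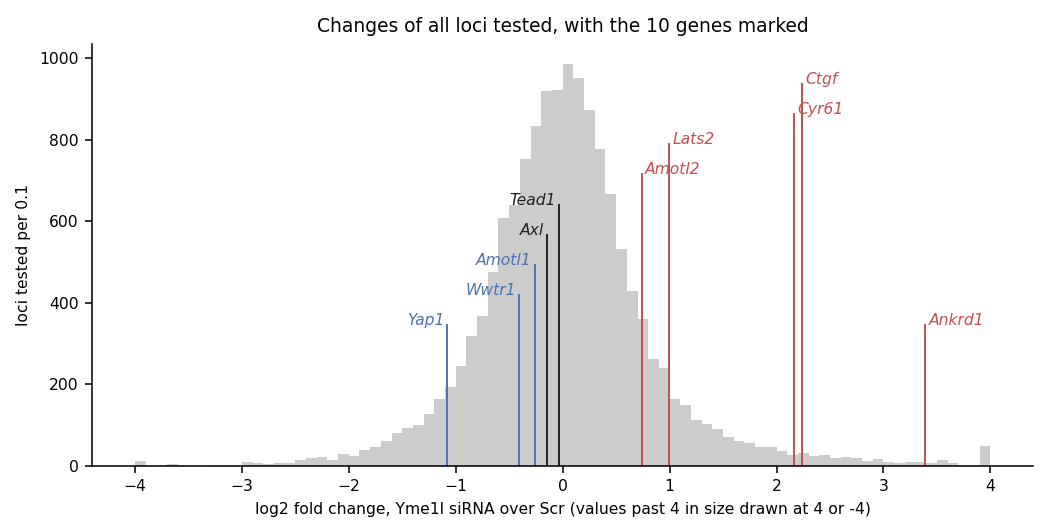
Number of loci tested per 0.1 of log2 fold change (grey), with the values of the 10 genes as vertical lines coloured by call (red, higher; blue, lower; black, not called; line heights serve only to separate the names, and values past 4 in size are drawn at 4 or -4). *Ankrd1*, *Ctgf* and *Cyr61* lay in the right tail, *Yap1* in the left flank at -1.08, and *Tead1* and *Axl* near the middle.

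The rises were not equal across the knockdown cultures, and the genes fell into different patterns. *Ctgf*, *Cyr61* and *Amotl2* were lowest in Yme1l siRNA replicate 3, the culture with the highest remaining *Yme1l1* level (45.0 CPM). *Wwtr1* and *Axl* were lowest there too. Among the knockdown cultures *Ankrd1*, *Yap1* and *Tead1* were highest in replicate 3. Conversely, *Ankrd1*, *Yap1*, *Tead1*, *Amotl1* and the *Lats2* locus were lowest in Yme1l siRNA replicate 2, the culture with the lowest *Yme1l1* level (23.4 CPM). *Wwtr1* and *Cyr61* were highest in replicate 2. Within the Scr group, replicate 3 also had the lowest *Ctgf* (47.6 CPM) and *Amotl2* (150 CPM) and the highest *Ankrd1* (1.54 CPM). *Cyr61*, however, was highest there (60.3 CPM), and *Yap1* hardly varied among the Scr cultures. The part of the remaining *Yme1l1*, or of the replicate number, in the differences among knockdown cultures was not tested. When the group means were removed from log2 CPM, the pairs most alike over the 6 libraries were *Ctgf* with *Amotl2* (Pearson r = 0.94) and *Cyr61* with *Axl* (0.91). The pairs least alike were *Wwtr1* with *Ankrd1* (-0.93) and *Yap1* with *Ctgf* (-0.83). The named pairs are the extremes of all pairs among the 10 genes. For *Yap1*, the SD of log2 CPM was 0.0007 in the Scr group and 0.26 after knockdown. Coefficients of *Yap1* thus rest almost wholly on the 3 knockdown libraries. All coefficients describe 6 libraries that share their scaling. Without Yme1l siRNA replicate 3, the log2 fold change of *Ctgf* was 2.52, that of *Cyr61* 2.35 and that of *Yap1* -1.22.

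Further members of the Hippo pathway changed in both directions. Of 25 other components, all tested, 6 were higher and 10 lower, 16 of 25 called against 58.0% of all loci, with a median log2 fold change of -0.11. Among the higher genes were *Ajuba* (1.34, edgeR adjusted p = 7.21e-06), which encodes a LIM protein that binds LATS kinases, and *Vgll3* (1.44, adjusted p = 2.48e-05), which encodes a co-factor of TEAD. *Ajuba* was at 45.5, 49.6 and 44.6 CPM in Scr replicates 1, 2 and 3 and at 121.5, 115.2 and 115.9 CPM in the Yme1l siRNA replicates. *Vgll3* was at 45.7, 40.9 and 37.4 CPM and at 125.8, 97.59 and 112.5 CPM. Both were thus more than doubled in mean level without overlap between the groups.

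*Dchs1*, an atypical cadherin, is 1 of the 6 higher components, with a log2 fold change of 3.09. Its counts were 7, 2 and 5 in Scr libraries and 49, 47 and 34 after knockdown. All Scr counts of *Dchs1* were under 10, so it passed the filter only through the knockdown libraries, where it is high. Its call is therefore not read as a result. *Wwc1*, which encodes the scaffold KIBRA, rose by 0.64 (edgeR adjusted p = 0.00591). The lower genes with the smallest adjusted p were *Mob1b*, a co-activator of LATS kinases (log2 fold change -0.69, edgeR adjusted p = 9.91e-05), *Tead2*, the atypical cadherin *Fat4* (-0.68, adjusted p = 0.000312) and *Stk3*, which encodes the kinase MST2 (-0.69, adjusted p = 0.000610). *Stk4*, which encodes MST1, had a value of 0.05 (95% interval -0.18 to 0.27) and was not called.

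Of 16 other genes listed as targets of YAP and TAZ, all tested, 4 were higher and 5 lower. These shares are near those of all loci tested, of which 28.4% were higher and 29.6% lower, and so is the median log2 fold change of 0.01. The higher genes were *Igfbp3*, which encodes a secreted protein that binds insulin-like growth factors (1.26, edgeR adjusted p = 0.00632), *Fjx1* (1.09, adjusted p = 0.00266), the kinase gene *Nuak2* (0.58, adjusted p = 0.00355) and *Crim1* (0.32, adjusted p = 0.0280). *Crim1* lost its call in 4 of the 6 leave-one-out fits, and its exons overlap those of *Fez2*, which held 2184 to 2981 counts on the other strand and whose reads cannot be told apart from its own if strand was not used in counting. By counts, the largest fall was at *Rbms3*, which encodes an RNA-binding protein. It was at 34.3, 34.1 and 33.1 CPM in Scr replicates 1, 2 and 3 and at 11.9, 10.8 and 12.2 CPM in the Yme1l siRNA replicates, a log2 fold change of -1.54 (SE 0.08, edgeR adjusted p = 6.67e-06). In the authors' group FPKM the fall of *Rbms3* was smaller, from 7.10 in Scr to 4.57 after knockdown, a ratio of 0.644. By that measure *Tgfb2* fell further, with a ratio of 0.570. The cytokine gene *Tgfb2* (-1.05, adjusted p = 0.00162), *Arhgef17* (-0.63, adjusted p = 0.000286) and *Nt5e* (-0.29, adjusted p = 0.0116) were also lower.

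**Figure D4:**
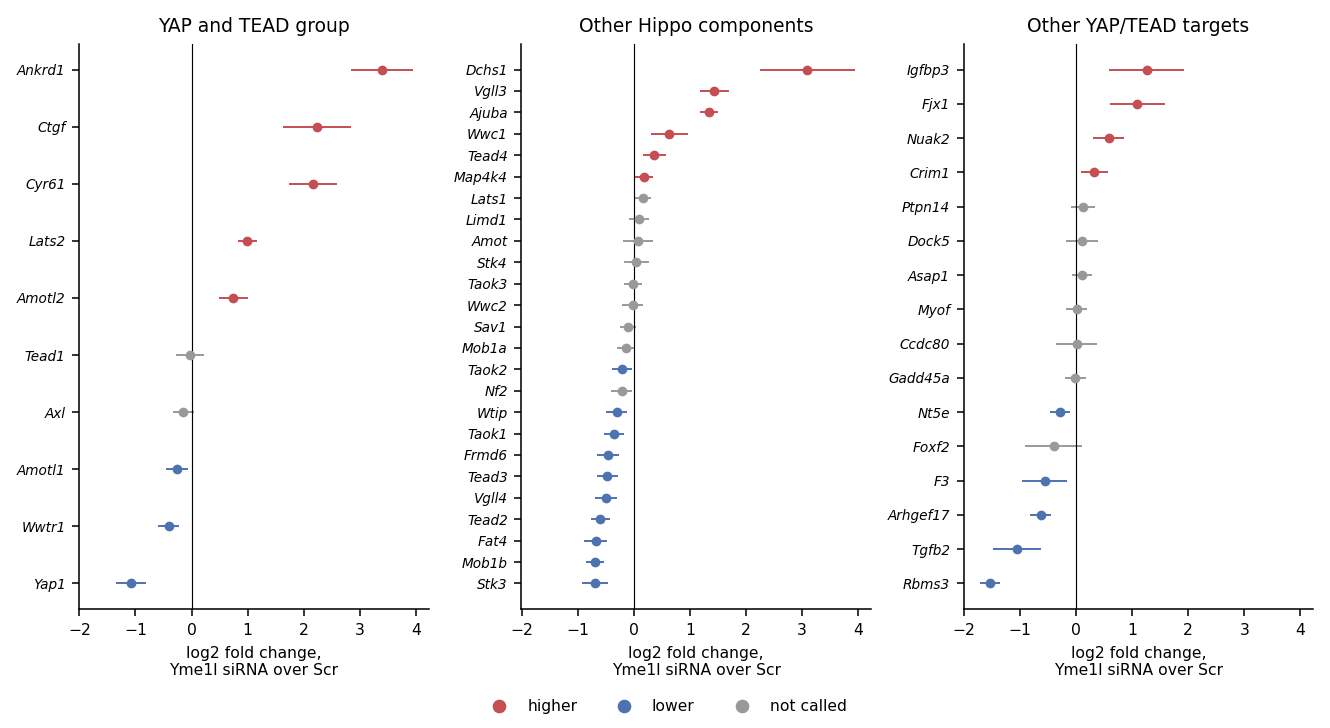
Log2 fold change of Yme1l siRNA over Scr with its 95% interval for the 10 genes, 25 other Hippo components and 16 other YAP and TAZ targets, coloured by call at an adjusted p under 0.05. The 10 genes ranged from -1.08 (*Yap1*) to 3.39 (*Ankrd1*). The other components ranged from -0.69 to 3.09 and the other targets from -1.54 to 1.26. The value of 3.09 is that of *Dchs1*, which passed the filter on low counts only through the knockdown libraries. In each list most genes lay within 1 of 0.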

How the data were processed

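Per the paper's methods and the submitters' processing notes, reads of stranded, paired-end libraries were mapped to mm10 (GRCm38) with HISAT2 2.0.4, assembled with StringTie 1.3.3 and compared with Cuffdiff 2.2.1. The authors deposited raw counts per locus without normalization, and the program that counted reads and its use of strand are not given in the sources used here. They also deposited FPKM per group, with the 3 libraries of a group combined, and these are printed as the authors' values without an error. The fold changes, test statistics and p-values in that table were not used.

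TMM factors were computed from these counts with edgeR 4.0.16 (R 4.3.3), followed by a quasi-likelihood test without covariates on loci that passed filterByExpr (at least 10 counts, 15 in total). p-values were adjusted by Benjamini-Hochberg over 14499 loci, with a threshold of 0.05. Standard errors are the log2 fold change divided by the square root of F, and p-values measure the spread between cultures. Libraries of a group differed beyond counting noise (chi-square per degree of freedom 10.4 to 75.5). All 6 libraries were mapped from their labels. The 10 genes and the lists were chosen with earlier results of these data known. Named were these genes, their paralogues and, in each further list, up to 4 called genes per direction with the smallest adjusted p, and *Yme1l1*. *Stk4* and the marker genes were named after their values were seen. Coordinates are from GENCODE M21 and promoters from RefSeq (GRCm38.p6), with 250 bases before the start. The scripts were tested on simulated data with 200 loci changed 2-fold. Of these edgeR recovered 164, with 4 false calls, and DESeq2 160, with 12. Far fewer loci changed there than were called in these data, so scaling under such broad change was not tested. Alternatives were other scale factors, filters, DESeq2 1.42.0, a replicate block, removal of mtDNA loci and leaving out each library.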

Additional observations from a re-analysis of the deposited data

How the results depend on the processing

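In all 13 alternatives 5 of the 10 genes were called higher, and 3 lower except in 4 fits that left out 1 library, where *Amotl1* was lost. Of the genes named by the rule 3 turned sign, none of them called in any setting. Their log2 fold changes in fits that left out 1 library ranged from -0.12 to 0.085 for *Tead1* (above 0 without Scr replicate 1, at 0.01, or Yme1l siRNA replicate 2), from -0.021 to 0.20 for *Amot* (below 0 when Yme1l siRNA replicate 1 was left out) and from -0.056 to 0.21 for *Nov* (below 0 when Yme1l siRNA replicate 2 was left out). The cause was not tested. *Gas6* passed the threshold with the replicate block (-0.68, edgeR adjusted p = 0.0328). Fits without 1 library gave log2 fold changes of 2.05 to 2.52 for *Ctgf* and -1.22 to -0.95 for *Yap1*. Deviations from group means correlated by 0.04, 0.12 and 0.19 between libraries with the same number. Libraries with different numbers were not compared in this way, so these values cannot tell whether a number marks a pair. With the replicate block, 5 of the 10 genes were higher and 3 lower, and 17 of the other Hippo components were called. The median of all loci was at most 0.03 under other scalings and 0.08 without the filter. Depth limits mainly *Dchs1*, *Gas6* (27 to 101 counts in a library) and, in Scr cultures, *Ankrd1*.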
